A study of Homo sapiens with 6 samples.

Results

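ATF4 and 9 genes of its programme were followed after 5aza treatment of HCT116, an established line from a human colorectal carcinoma. The set was chosen by symbol: ATF4 itself; PHGDH, PSAT1 and PSPH of serine synthesis; SHMT2 and MTHFD2 of mitochondrial one-carbon metabolism; ASNS of asparagine synthesis; and DDIT3, TRIB3 and CHAC1 of the stress response. All 10 were among the 16715 identifiers of the table, and all 10 were among the 12360 genes abundant enough to be tested. RNA-seq was available from 3 control and 3 5aza libraries. Treated cells had 48 hours of 5 µM 5aza and then 48 hours without it, in new medium. The labels name no vehicle for the controls and do not say whether the libraries of a group came from separate cultures. The p-values therefore set a difference against the spread between libraries within a group, which may be technical. No culture time or medium change was recorded here for the controls, so a difference in either cannot be told apart from 5aza. 5aza is an azanucleoside, a cytidine analogue that traps DNA methyltransferases; the same libraries carry the code DAC elsewhere in the labels, and no source used here spells the compound out. Values are FPKM, fragments scaled for transcript length and for the size of the library, so levels of different genes can be set side by side per length.

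ATF4 is a transcription factor of the bZIP family. When kinases that sense amino acid shortage, misfolded protein, haem deficiency or double-stranded RNA phosphorylate the initiation factor eIF2, most translation slows while ATF4 mRNA is translated more, a route called the integrated stress response. ATF4, usually with a C/EBP partner, then switches on genes that take up and make amino acids, and, under lasting stress, DDIT3, TRIB3 and CHAC1. Because much of this control acts on translation, the level of ATF4 mRNA does not give the level of ATF4 protein. Serine made by PHGDH, PSAT1 and PSPH feeds SHMT2 and MTHFD2 in mitochondria, which pass its carbon to folate for nucleotide synthesis. PHGDH supply is of interest in tumour cells, since many depend on making their own serine.

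Most genes of the set fell after 5aza, and PSPH, TRIB3 and CHAC1 did not pass the test. With limma on log2(FPKM + 0.1), 7 of 10 fell (adjusted p under 0.05), 0 rose and 3 did not pass; over all genes tested, 13.1% fell and 10.6% rose. The falls were of ATF4, PHGDH, PSAT1, SHMT2, MTHFD2, ASNS and DDIT3. MTHFD2 fell by 11.1% of its control mean and PHGDH by 29.2%, the smallest and largest of the 7. The median log2 difference of the 10 genes was -0.23, against -0.01 over all genes tested. Every 5aza library was below every control library for 8 of the 10 genes, a pattern found in 22.6% of genes tested (the opposite pattern in 19.6%); the groups overlapped for PSPH and CHAC1. ATF4 and PHGDH were called lower under all 15 alternative settings tried. In bulk RNA, fewer cells with a transcript and less of it per cell cannot be told apart.

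**Figure D1:**
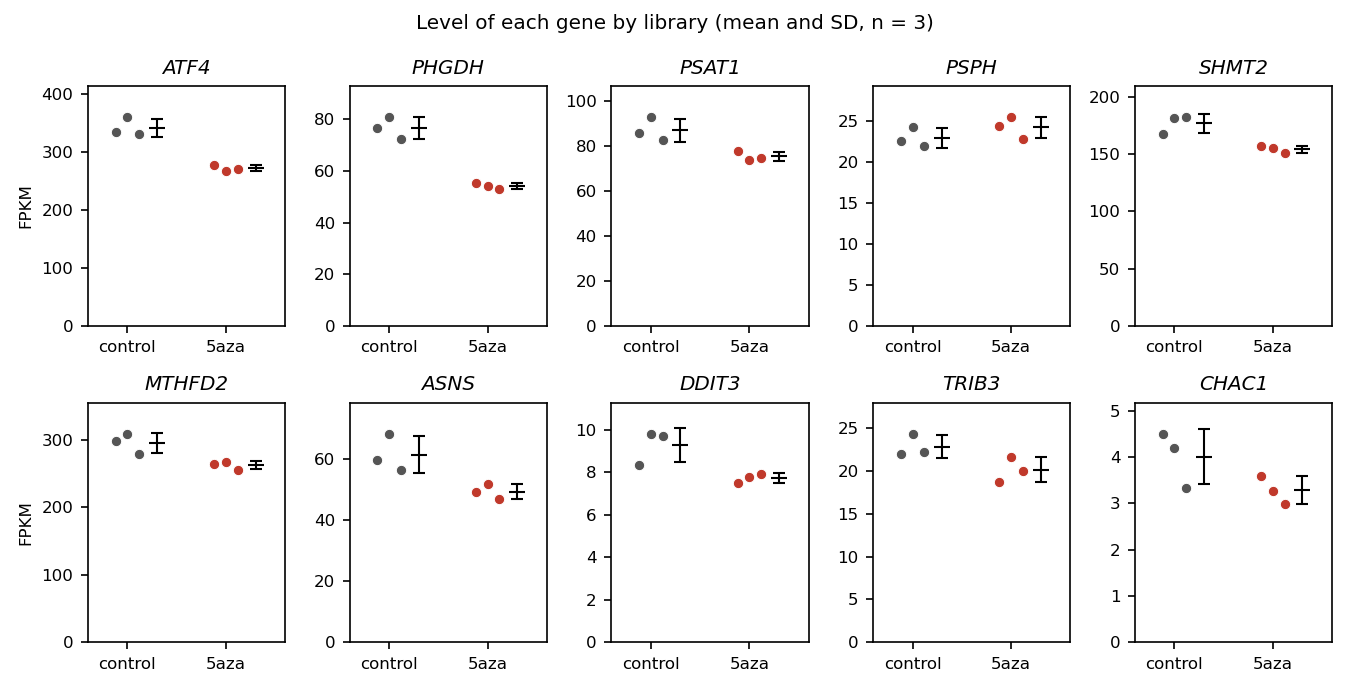
FPKM of each of the 10 genes (y axis, from 0, a separate scale per gene) in the 3 control libraries (grey) and 3 5aza libraries (red), with the mean and SD beside them. The 5aza points of ATF4 (268 to 278 FPKM) and PHGDH (53.1 to 55.3 FPKM) lie well below the control points, whereas those of PSPH overlap them.

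Abundance and the libraries' sums moved with this result, and their part in it was not tested. Of 2007 genes with a mean of 50 FPKM or more, 35.0% fell and 6.88% rose, and their median log2 difference was -0.09. All 6 members at that level (ATF4, PHGDH, PSAT1, SHMT2, MTHFD2 and ASNS) fell, against 1 of the 4 below it. The summed FPKM of a library was also lower after 5aza, at 577735 to 592051 against 601916 to 628399 in control, and 755 to 801 genes against 1663 to 1761 were listed at 0. With each library scaled to the same sum, 4 members fell (ATF4, PHGDH, PSAT1 and ASNS), where 6.30% of all genes tested, and 18.4% of those from 50 FPKM (16.7% rose), did; with the trend of the difference on abundance removed, 4 fell (ATF4, PHGDH, ASNS and DDIT3), where 7.92% of all genes did. Rises made up 44.7% of all calls as deposited, 74.2% with equal sums and 59.2% with the trend removed. Without 5aza replicate 1, 2 or 3, the number of members called lower was 4, 4 and 3, and the share of all genes tested that fell was 9.58%, 8.69% and 7.80%.

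**Figure D2:**
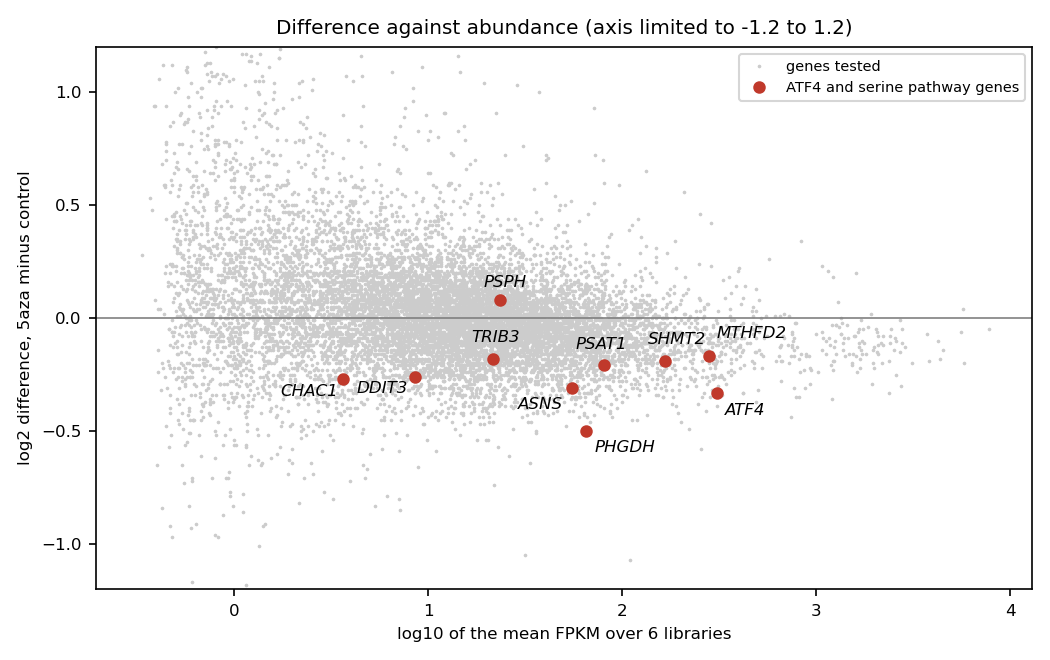
Log2 difference (5aza minus control, y axis) against log10 of the mean FPKM over the 6 libraries (x axis) for the genes tested (grey) and the 10 genes of the set (red, named). The cloud bends below 0 towards high abundance; PHGDH (-0.50) and ATF4 (-0.33) lie in its lower part, and PSPH (0.08) just above 0; genes beyond the limits of the y axis are not drawn.

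**Figure D3:**
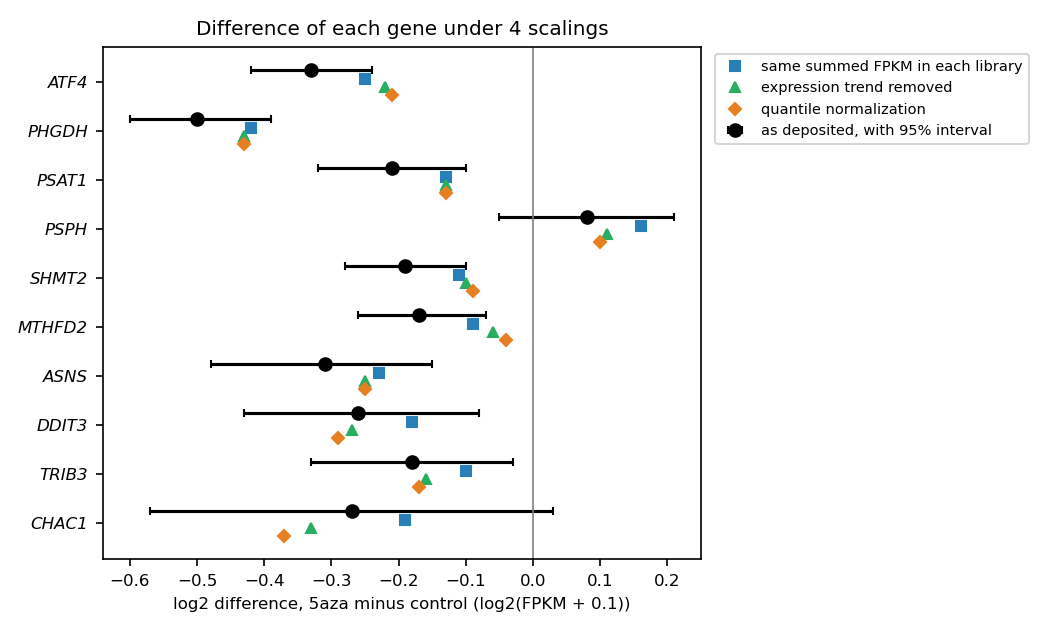
Log2 difference (5aza minus control) of each gene on deposited FPKM (black, with its 95% interval) and under 3 other scalings (coloured points). Under each, 9 genes are below 0 and PSPH is above 0, while MTHFD2 moves from -0.17 to between -0.09 and -0.04.

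Levels ranged from 2.99 to 360 FPKM over the set and the 6 libraries. In control libraries the order by mean FPKM was ATF4 (342), MTHFD2 (295), SHMT2 (177), PSAT1 (86.9), PHGDH (76.5), ASNS (61.6), PSPH (22.9), TRIB3 (22.8), DDIT3 (9.29) and CHAC1 (4.01). PSPH and TRIB3 could not be ranked, since their control libraries overlapped. Together the 10 genes held 0.173% to 0.184% of the summed FPKM of a control library and 0.157% to 0.159% of that of a 5aza library. Within the control group, replicate 2 was the highest of the 3 libraries for 8 of the 10 genes, where it was the highest for 38.6% of all genes tested. Without control replicate 2, 5 of the 10 genes fell, where 7.65% of all genes tested did, and the median log2 difference of the 10 was -0.20.

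ATF4 (ENSG00000128272, GRCh38 chromosome 22, 39519695 to 39522685) was the most abundant gene of the set. Its level was 335, 360 and 331 FPKM in control replicates 1 to 3, and 278, 268 and 270 FPKM in 5aza replicates 1 to 3. All 5aza libraries were lower than all control libraries, and they lay close together. ATF4 fell by 20.4%, from 342 ± 16.1 to 272 ± 5.37 FPKM (SD, n = 3; log2 difference -0.33, SE 0.039, limma adjusted p = 0.00134). Over the alternative settings the log2 difference lay between -0.35 and -0.21, with an adjusted p of at most 0.0114. GENCODE release 29 names 4 ATF4 pseudogenes, and 0 of them are rows of the table, so the treatment of reads that match more than 1 copy could not be checked.

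Of the enzymes of serine synthesis, PHGDH and PSAT1 fell and PSPH did not pass the test. PHGDH (ENSG00000092621, chromosome 1, 119648411 to 119744226) draws 3-phosphoglycerate out of glycolysis in the committing step of the pathway. It measured 76.6, 80.7 and 72.3 FPKM in control and 55.3, 54.0 and 53.1 FPKM in 5aza libraries. The 5aza libraries were tightly grouped and far below the controls. PHGDH fell from 76.5 ± 4.17 to 54.1 ± 1.14 FPKM (SD, n = 3; log2 difference -0.50, SE 0.044, limma adjusted p = 4.08e-04). PSAT1 (ENSG00000135069, chromosome 9, 78297143 to 78330093), the aminotransferase of the next step, measured 85.5, 92.6 and 82.4 FPKM in control and 77.6, 73.6 and 74.6 FPKM in 5aza libraries. The groups did not overlap, but the gap between the lowest control and the highest 5aza library was small. PSAT1 fell from 86.9 ± 5.25 to 75.3 ± 2.10 FPKM (SD, n = 3; log2 difference -0.21, limma adjusted p = 0.0193). Leaving out 5aza replicate 2 (adjusted p = 0.0678) or 5aza replicate 3 (0.0648) ended the PSAT1 call, as did removing the abundance trend (0.0999) or leaving out the variance trend (0.0581). GENCODE names 4 PSAT1 pseudogenes and 1 of PSPH, none of them rows of the table.

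PSPH (ENSG00000146733, chromosome 7, 56011051 to 56051604) encodes the phosphatase that releases serine in the last step. Control libraries held 22.5, 24.2 and 21.9 FPKM and 5aza libraries 24.3, 25.4 and 22.8 FPKM, so that the groups overlapped. PSPH did not pass the test (means 22.9 ± 1.19 and 24.2 ± 1.30 FPKM, SD, n = 3; log2 difference 0.08, 95% interval -0.05 to 0.21, limma adjusted p = 0.342). It did not pass under any of the 15 alternative settings, where the log2 difference lay between 0.04 and 0.16. The adjusted p came nearest to the threshold with equal sums (0.0504).

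Ratios between genes of the same library do not change when a library is multiplied by 1 factor, as with equal sums, though quantile normalization and trend removal can change them. On deposited FPKM 8 ratios were computed, chosen after the values were seen. PHGDH over PSPH was 3.40, 3.34 and 3.31 in control and 2.27, 2.13 and 2.33 in 5aza libraries. PSAT1 over PSPH was 3.80, 3.83 and 3.77 in control and 3.19, 2.90 and 3.27 in 5aza libraries. PHGDH over PSAT1 was 0.896, 0.871 and 0.878 in control and 0.713, 0.734 and 0.711 in 5aza libraries. In each of these 3 ratios the groups stood apart, and the control libraries differed from each other by little, although their FPKM differed by more. By an exact two-sided permutation test, each gave p = 0.10 (n = 3 per group), the smallest that 3 against 3 libraries can give, or 0.133 adjusted over the 8 ratios. Mean PHGDH over PSPH was 3.35 ± 0.048 in control and 2.24 ± 0.10 in 5aza libraries (SD, n = 3).

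**Figure D4:**
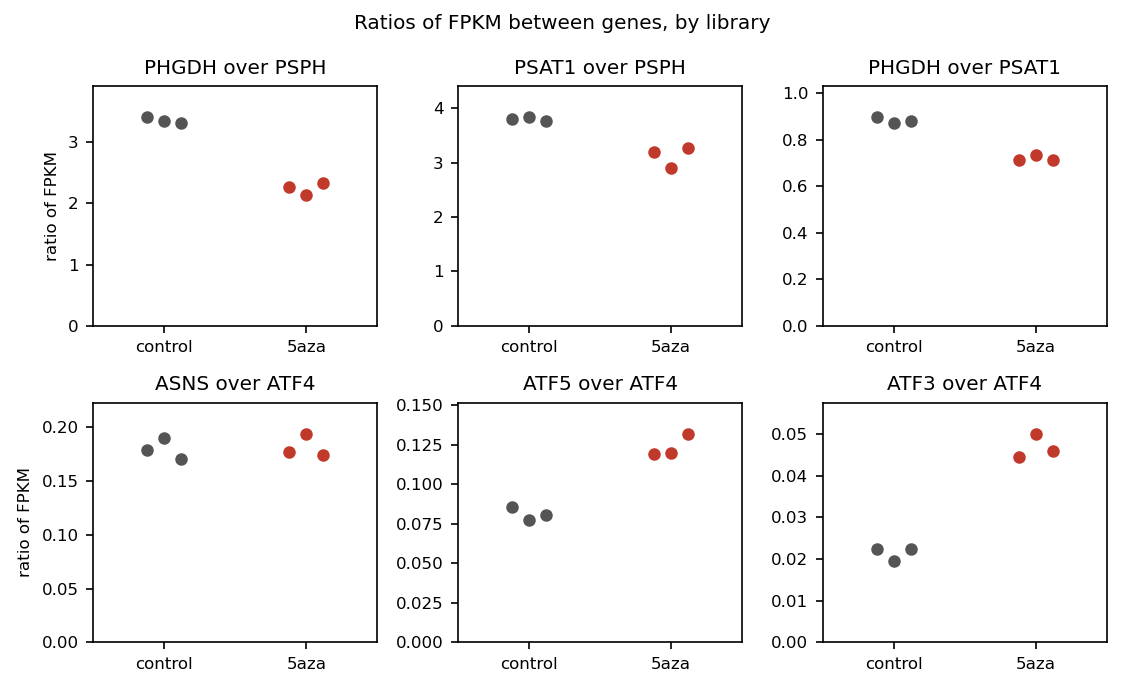
FPKM ratios of 6 of the 8 pairs of genes (y axis, from 0, a separate scale per pair) in the 3 control (grey) and 3 5aza (red) libraries. Mean PHGDH over PSPH is 3.35 in control and 2.24 in 5aza libraries, and mean ATF3 over ATF4 is 0.0215 and 0.0469, while ASNS over ATF4 overlaps between groups.

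SHMT2 and MTHFD2 act in turn in mitochondria: SHMT2 moves a carbon from serine to tetrahydrofolate, and MTHFD2 oxidises the product. SHMT2 (ENSG00000182199, chromosome 12, 57229327 to 57234935) measured 167, 181 and 182 FPKM in control and 157, 155 and 151 FPKM in 5aza libraries. All 5aza libraries lay below all controls, by a modest margin. It fell from 177 ± 8.10 to 154 ± 3.08 FPKM (SD, n = 3; log2 difference -0.19, SE 0.039, limma adjusted p = 0.0117). The SHMT2 call held without any 1 library (adjusted p of at most 0.0479) but was lost under quantile normalization (adjusted p = 0.201), with equal sums (0.0832) and with the abundance trend removed (0.127). MTHFD2 (ENSG00000065911, chromosome 2, 74198562 to 74217565) measured 298, 309 and 279 FPKM in control and 264, 267 and 256 FPKM in 5aza libraries. Again the groups did not overlap, with control replicate 3 nearest to the 5aza libraries. MTHFD2 fell from 295 ± 15.1 to 263 ± 5.45 FPKM (SD, n = 3; log2 difference -0.17, limma adjusted p = 0.0237), the smallest of the 7 falls.

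The MTHFD2 call did not survive most alternatives. It ended on leaving out control replicate 1 (adjusted p = 0.0703) or 2 (0.0672), or any one 5aza replicate (0.0617, 0.0551 and 0.0838 in order of number), and under each of the 3 other scalings (0.0552 to 0.340). SLC4A5, on the opposite strand, shares 27.2% of the annotated exon bases of MTHFD2; without known strand marking its reads cannot be told apart there, and its mean was 3.50 FPKM in control and 2.97 FPKM after 5aza. GENCODE also names 7 MTHFD2 pseudogenes, none of them rows of the table.

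Cytosolic counterparts of both enzymes were measured too. SHMT1 did not pass (means 49.3 and 46.9 FPKM, log2 difference -0.08, adjusted p = 0.580), and SHMT2 over SHMT1 overlapped between groups (3.59 ± 0.21 and 3.35 ± 0.53, SD, n = 3; exact permutation p = 0.50). MTHFD1, the cytosolic enzyme of folate interconversion, fell from 96.9 to 77.8 FPKM (log2 difference -0.32, SE 0.041, limma adjusted p = 0.00206). MTHFD2 over MTHFD1 was 3.15, 3.05 and 2.94 in control and 3.52, 3.31 and 3.30 in 5aza libraries. In that ratio the 5aza libraries were the higher ones (exact permutation p = 0.10 for n = 3 per group, adjusted 0.133).

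ASNS (ENSG00000070669, chromosome 7, 97852118 to 97872542) makes asparagine from aspartate and glutamine and is a classic ATF4 target. Its levels were 59.8, 68.4 and 56.5 FPKM in control and 49.2, 52.0 and 47.0 FPKM in 5aza libraries. Control replicate 2 was the highest, and no 5aza library reached a control. ASNS fell from 61.6 ± 6.15 to 49.4 ± 2.48 FPKM (SD, n = 3; a mean change of -19.8%, log2 difference -0.31, SE 0.072, limma adjusted p = 0.0185). Leaving out 5aza replicate 1 (adjusted p = 0.0536) or 3 (0.0668), or the variance trend (0.0538), ended the ASNS call, which held under each of the 3 other scalings. ASNS over ATF4 was 0.180 ± 0.0095 in control and 0.182 ± 0.011 in 5aza libraries (SD, n = 3), and the groups overlapped (exact permutation p = 0.80). AC079781.5, a transcript on the same strand that is not a row of the table, shares 44.6% of the annotated exon bases of ASNS, and GENCODE names 4 ASNS pseudogenes.

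DDIT3, TRIB3 and CHAC1 act in the later, stress-bound part of the programme. DDIT3 (ENSG00000175197, chromosome 12, 57516588 to 57521737), which encodes the stress factor CHOP, measured 8.35, 9.82 and 9.71 FPKM in control and 7.51, 7.77 and 7.94 FPKM in 5aza libraries. The lowest control library was near the highest 5aza library, and the groups did not overlap. DDIT3 fell from 9.29 ± 0.816 to 7.74 ± 0.220 FPKM (SD, n = 3; log2 difference -0.26, SE 0.075, limma adjusted p = 0.0431). Leaving out control replicate 2 (adjusted p = 0.132) or 3 (0.111), or any one 5aza replicate (0.113, 0.0957 and 0.0838 in order of number), ended the DDIT3 call, as did equal sums (0.153). MARS1, a far more abundant gene of the opposite strand (means 93.3 and 78.9 FPKM, log2 difference -0.25, adjusted p = 0.0628), shares 27.2% of the annotated exon bases of DDIT3. No source used here states whether the libraries keep strand, and the part of MARS1 reads in the DDIT3 values was not tested.

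TRIB3 (ENSG00000101255, chromosome 20, 362835 to 397559), a pseudokinase that holds back AKT and ATF4 itself, measured 21.9, 24.3 and 22.2 FPKM in control and 18.7, 21.6 and 20.0 FPKM in 5aza libraries. The groups touched without overlapping. TRIB3 did not pass the test (means 22.8 ± 1.30 and 20.1 ± 1.47 FPKM, SD, n = 3; log2 difference -0.18, 95% interval -0.33 to -0.03, limma adjusted p = 0.0836). CHAC1 (ENSG00000128965, chromosome 15, 40952962 to 40956519), which degrades glutathione, measured 4.50, 4.19 and 3.34 FPKM in control and 3.60, 3.27 and 2.99 FPKM in 5aza libraries. Control replicate 3 lay below 5aza replicate 1, so that the groups overlapped. CHAC1 did not pass (means 4.01 ± 0.597 and 3.29 ± 0.306 FPKM, SD, n = 3; log2 difference -0.27, 95% interval -0.57 to 0.03, limma adjusted p = 0.165), but passed without control replicate 3 (adjusted p = 0.0482).

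ATF4 with a C/EBP partner is known to bind a composite element whose core can be written TGATGNAA. That core was sought on both strands in RefSeq promoter windows on GRCh38.p14, from 250 bases before to 50 after a start. Of the 10 genes, 8 had a window, and 2 of the 8, ASNS and CHAC1, held the core, where 4.46% of all 27305 genes with a window did. Counted by window, since a gene can have several, it was in 2 of the 13 windows of these genes and in 3.62% of all 35116. The 30 bases around each match are shown 5′ to 3′ on the gene's strand, with the match in capitals.
ASNS: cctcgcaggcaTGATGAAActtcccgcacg
CHAC1: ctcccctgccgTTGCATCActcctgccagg
The ASNS bases lie at chr7:97872458-97872487 on the minus strand, and the match runs from 68 to 61 bases before the RefSeq start, inside an exon of a longer transcript in GENCODE release 29. The CHAC1 bases lie at chr15:40953251-40953280, and the match, which reads TGATGCAA on the opposite strand, runs from 209 to 202 bases before the start, also inside an annotated exon. Of these genes ASNS fell and CHAC1 did not pass the test. The cAMP response element TGACGTCA, a related palindromic site, was in 1.85% of all windows and in 0 of the 13. Genes known as ATF4 targets were chosen, so a higher share of them with its core was partly fixed in advance and tests nothing. A match describes letters only, and a window without one says nothing of binding elsewhere.

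The 18 control genes of the integrated stress response gave 2 rises, 0 falls and 16 that did not pass, with a median log2 difference of -0.01. Of all genes tested, 10.6% rose and 13.1% fell, so the rises were near the general share. DNAJC3, an inhibitor of the eIF2 kinases, rose from 15.9 to 18.5 FPKM (log2 difference 0.22, adjusted p = 0.00917). EIF2AK4, the kinase GCN2 that senses uncharged tRNA, rose from 21.1 to 23.0 FPKM (adjusted p = 0.0485), and missed the threshold whichever library was left out (0.0837 to 0.137). PPP1R15A, the phosphatase subunit GADD34 that ends the response and is itself a target of it, had means of 13.1 and 14.5 FPKM and did not pass (adjusted p = 0.0579).

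Among 13 bZIP genes related to ATF4 or known as its partners, 4 rose, 0 fell and 9 did not pass, with a median of 0.00. Of all genes tested, 10.6% rose and 13.1% fell. JUN, of the AP-1 complex, measured 7.48, 7.13 and 7.35 FPKM in control and 12.6, 12.8 and 13.8 FPKM in 5aza libraries (log2 difference 0.83, SE 0.056, limma adjusted p = 1.18e-04). ATF3, a stress factor that is a target of both ATF4 and p53, rose from 7.32 to 12.8 FPKM (log2 difference 0.79, adjusted p = 1.74e-04). ATF5, the nearest relative of ATF4, rose from 27.8 to 33.7 FPKM (log2 difference 0.28, adjusted p = 0.00730). These 3 calls held under all 15 alternatives; the fourth rise was of CEBPD (6.34 to 8.25 FPKM), picked with its values known. Per library, ATF3 over ATF4 was 0.0224, 0.0195 and 0.0225 in control and 0.0446, 0.0501 and 0.0459 in 5aza libraries, and ATF5 over ATF4 was 0.0813 ± 0.0042 and 0.124 ± 0.0073 (SD, n = 3; exact permutation p = 0.10 for each ratio, adjusted 0.133). In both ratios the groups stood apart. That separation and its p-value followed from the single genes and test nothing further. ATF3 and ATF5 were higher, and ATF4 lower, in every 5aza library than in every control library.

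Of 32 other genes known as ATF4 targets, 27 entered the test, giving 6 rises, 7 falls and 14 that did not pass, with a median log2 difference of -0.04. The shares over all genes tested were 10.6% rises and 13.1% falls. The rises were led by GDF15, a stress cytokine (135 to 346 FPKM, log2 difference 1.36, adjusted p = 5.80e-07), and ATF3. TNFRSF10B, the death receptor DR5 (39.4 to 55.1 FPKM), SESN2, a leucine sensor (7.53 to 10.1 FPKM), DDIT4 (58.7 to 69.9 FPKM) and ATF5 made up the rest and, apart from ATF5 and TNFRSF10B, were picked with their values known. As background, GDF15, ATF3, TNFRSF10B, SESN2 and DDIT4 are also known targets of p53. The falls were led by AARS1, the alanyl-tRNA synthetase (71.1 to 56.6 FPKM, log2 difference -0.33, adjusted p = 4.23e-04), and EIF4EBP1, a repressor of translation (83.1 to 68.8 FPKM, log2 difference -0.27, adjusted p = 0.00356). With the abundance trend removed, 6 rose and 4 fell, and with equal sums 7 rose and 5 fell (median 0.04).

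**Figure D5:**
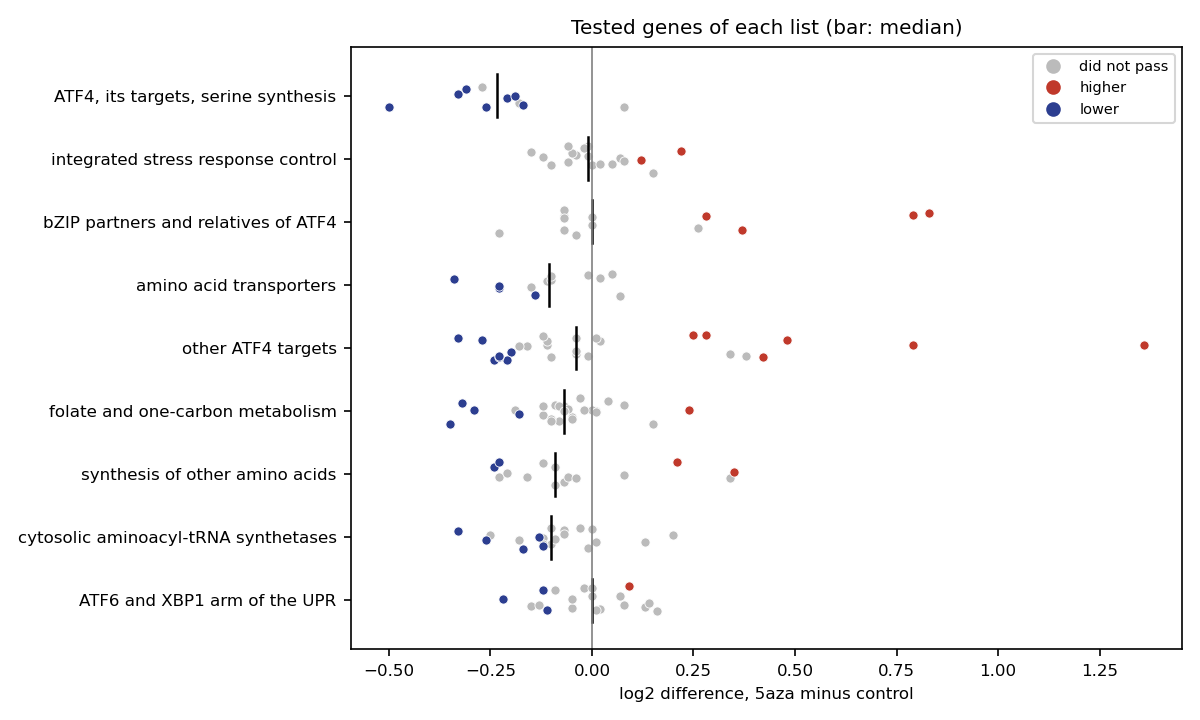
Log2 difference (5aza minus control, x axis) of the tested genes of the set and of 8 lists (rows), coloured by call: higher (red), lower (blue) or not passing (grey), with the median as a bar. The 10 genes of the set have a median of -0.23; the bZIP and other target lists reach to the right with JUN (0.83) and GDF15 (1.36).

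Of 12 amino acid transporters, 4 fell, 0 rose and 8 did not pass (median log2 difference -0.10). Falls made up 13.1% of all genes tested, and 35.0% of those with a mean of 50 FPKM or more. Among the falling transporters, SLC7A5 (202 to 173 FPKM), SLC3A2 and SLC1A5 (156 to 141 FPKM) were at that level. SLC3A2, the chain shared by several exchangers, fell from 178 to 152 FPKM (log2 difference -0.23, adjusted p = 0.00644), a call lost with the abundance trend removed (adjusted p = 0.0564). SLC1A4, a transporter of alanine and serine, fell from 2.70 to 2.12 FPKM (adjusted p = 0.0490), and missed the threshold whichever library was left out (0.0638 to 0.143). SLC7A11, the cystine transporter and a known ATF4 target, did not pass (7.27 and 6.75 FPKM, adjusted p = 0.272). With the abundance trend removed, 1 transporter fell, and with equal sums 2 fell.

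Of 28 further genes of folate and one-carbon metabolism, 26 entered the test, giving 4 falls, 1 rise and 21 that did not pass (median log2 difference -0.07). Falls made up 13.1% of all genes tested and rises 10.6%. TYMS, thymidylate synthase, fell from 182 to 143 FPKM (log2 difference -0.35, adjusted p = 0.00149), alongside MTHFD1. TYMS is known as an S-phase gene. SFXN3, a carrier of serine into mitochondria, rose from 15.4 to 18.2 FPKM (adjusted p = 0.0211), and missed the threshold on leaving out control replicate 1 (0.0669) or 2 (0.0515), or 5aza replicate 1 (0.0682) or 3 (0.0728). SFXN1, its more abundant relative, did not pass (61.8 and 57.9 FPKM, adjusted p = 0.163).

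In the synthesis of other amino acids, 15 of 19 genes were tested, with 2 rises, 2 falls and 11 that did not pass (median log2 difference -0.09). Of all genes tested, 10.6% rose and 13.1% fell. Other scalings shifted the list's counts to 3 rises and 1 fall (quantile normalization), 4 and 1 (equal sums) or 3 and 0 (abundance trend removed). PYCR1, of proline synthesis, fell from 262 to 222 FPKM (log2 difference -0.24, adjusted p = 0.00934), a call lost with the abundance trend removed (adjusted p = 0.0804). BCAT2, a branched-chain aminotransferase, fell from 49.0 to 41.8 FPKM (adjusted p = 0.0356), and missed the threshold on leaving out control replicate 1 or 2 or any 5aza replicate (adjusted p between 0.0538 and 0.107). Its call was also lost under quantile normalization (0.0543), with equal sums (0.0609), with the abundance trend removed (0.0990) and with no variance trend (0.0826). ASS1, which makes argininosuccinate, rose from 29.7 to 37.8 FPKM (log2 difference 0.35, adjusted p = 0.00396).

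Among 20 cytosolic aminoacyl-tRNA synthetase genes, several of which are ATF4 targets, 5 fell, 0 rose and 15 did not pass (median log2 difference -0.10). Of all genes tested, 13.1% fell and 10.6% rose. Among those with a mean of 50 FPKM or more, as most synthetases had, 35.0% fell and 6.88% rose. AARS1 and YARS1 (97.1 to 81.1 FPKM, log2 difference -0.26, adjusted p = 0.00348) had the largest falls of the synthetases. Quantile normalization or equal sums left 3 falls and 1 rise among the synthetases, and removing the abundance trend 2 falls and 1 rise (median log2 difference -0.02). In the ATF6 and XBP1 arm of the unfolded protein response there was 1 rise among 19 genes, with 3 falls (median log2 difference 0.00). That balance turned with the scaling, to 2 rises and 1 fall under quantile normalization, 2 and 0 with equal sums and 3 and 0 with the abundance trend removed; with no variance trend there were 0 of either. HSPA5, the chaperone BiP, rose from 242 to 258 FPKM (adjusted p = 0.0368), and missed the threshold whichever library was left out (0.0589 to 0.119). CRELD2 fell from 41.4 to 35.7 FPKM (adjusted p = 0.0182), and missed the threshold on leaving out control replicate 1 or 2 or 5aza replicate 1 or 3 (adjusted p between 0.0578 and 0.0643). MANF fell from 68.9 to 63.2 FPKM (adjusted p = 0.0308), and missed the threshold on leaving out control replicate 1 or 2 or 5aza replicate 2 or 3 (adjusted p between 0.0826 and 0.0996); both encode secreted ER stress proteins. Both MANF and CRELD2 lost the call with equal sums (adjusted p = 0.294 and 0.0714).

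Of 7 death-related genes tied to DDIT3 and ATF4, 3 rose, 0 fell and 4 did not pass, where 10.6% of all genes tested rose and 13.1% fell. PMAIP1, the BH3-only protein NOXA, rose from 41.9 to 59.3 FPKM (log2 difference 0.50, adjusted p = 3.12e-04), beside TNFRSF10B and BBC3 (20.1 to 26.9 FPKM), the last chosen after its values were seen; all 3 are also p53 targets by background knowledge. Of 7 close relatives of the set, ATF5 rose, CHAC2 fell and 5 did not pass. CHAC2 went from 13.3 to 11.3 FPKM (adjusted p = 0.0436), and missed the threshold whichever library was left out (0.0616 to 0.128). The tribbles genes TRIB1 (99.6 and 99.5 FPKM) and TRIB2 (5.34 and 6.15 FPKM) did not pass, with adjusted p-values of 0.976 and 0.0779.

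The genes whose 6 centred log2 values lay nearest to those of PHGDH, among 8845 genes of at least 5 FPKM, were SPC25, of the kinetochore (32.1 and 22.7 FPKM, root mean square distance 0.0202), HMGB2, a chromatin protein (257 and 183 FPKM, distance 0.0242), and TFAP4, a transcription factor (25.1 and 18.2 FPKM, distance 0.0275). This measure describes 6 libraries in 2 groups only.

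Markers of the labelled tissue were present in part. Summed over 11 colorectal epithelial markers, the level was 2347 to 2501 FPKM in control and 2849 to 2922 FPKM in 5aza libraries. EPCAM, KRT8, KRT18 and KRT19 were abundant, whereas VIL1, CDX1, LGALS4 and GPA33 stayed under 1 FPKM in all 6 libraries. Of the markers tested, KRT8, KRT18, KRT19, KRT20 and CDH1 rose, EPCAM fell (166 to 153 FPKM) and CDX2 did not pass. The 7 fibroblast markers summed to 4.57 to 4.95 and 7.26 to 7.96 FPKM, nearly all of it COL1A1, and the 5 leukocyte and 3 endothelial markers to at most 1.14 and 0.584 FPKM.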

How the data were processed

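The table analysed holds FPKM per gene for all 6 libraries, deposited by the authors; the FPKM unit is given in the name of the deposited file. Named in the submitters' processing notes, without roles, are the tools DESeq2 1.10.1, HTSeq 0.6.0 and STAR 2.5.1b; the notes also name a rat build, Rnor_6.0, beside GRCh38. No source used here gives the read depth or the program that made the FPKM values. Of 16726 rows, 11 repeated an identifier and of each such pair the row of lower mean was dropped. Columns were matched through the sample descriptions.

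Values were used as log2(FPKM + 0.1); a difference on this scale understates the change of low genes. A gene entered the limma test (version 3.58.1, R 4.3.3) when 3 or more of the 6 libraries reached 0.5 FPKM (two-sided, variance trend, Benjamini-Hochberg over all genes tested), after a test on simulated data. All adjusted p-values of single genes are limma's. Ratios were compared by an exact permutation test. Alternatives covered pseudocount, filter, scaling, variance trend, replicate block and each library left out. Coordinates are from GENCODE release 29 on GRCh38; promoter sequences are from RefSeq on GRCh38.p14.

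The 10 genes and all lists were chosen with earlier results of these data known. Beside the 10 genes, the rule named up to 2 higher and 2 lower genes per list with the largest differences, and the 3 genes nearest to the gene of the set with the largest difference. Any other gene named from a list was picked with its values known. Lists share some genes, such as ATF3 and AARS1. The values of some listed genes are not reported here, although the counts include them.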

Additional observations from a re-analysis of the deposited data

How the results depend on the processing

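Direction was kept for all 10 genes under the 15 alternatives. Counts over all genes moved too: 2244 rose and 779 fell with equal sums, 979 fell with the abundance trend removed and 1041 with no variance trend. Members called lower numbered 4, 4 and 3 in those settings. With equal sums SHMT2 (-0.11), MTHFD2 (-0.09) and DDIT3 (-0.18) lost the call, with the trend removed PSAT1 (-0.13), SHMT2 (-0.10) and MTHFD2 (-0.06), under quantile normalization SHMT2 (-0.09) and MTHFD2 (-0.04), with no variance trend PSAT1 (-0.21), MTHFD2 (-0.17), ASNS (-0.31) and DDIT3 (-0.26), and with no filter DDIT3 (-0.26, adjusted p = 0.0560, with 16627 genes tested). The cause of these losses was not tested.

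With 1 library left out, between 1635 and 2607 genes were called, 693 to 1084 higher and 940 to 1523 lower, and 3 to 7 members lower. The log2 difference then ranged from -0.24 to -0.16 for PSAT1, -0.21 to -0.14 for MTHFD2, -0.37 to -0.24 for ASNS, -0.33 to -0.22 for DDIT3 and -0.39 to -0.19 for CHAC1. These fits have fewer samples.

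The replicate number was not shown to pair libraries: same-numbered deviations correlated at 0.048, 0.077 and 0.068, although each library correlated best with its own number. With the replicate block, 1259 genes rose and 1673 fell, against 1310 and 1619, and 8 members fell, TRIB3 (-0.18, adjusted p = 0.0271) being added. The core TGATGNAA was in 2 of 8 genes also when only the 250 bases before the start were searched. Of values for other named genes under alternatives, 288 kept their call and 72 lost it; of list counts, 222 stayed within 1.5 times and 78 did not. Read depth is not given, so no floor is stated for low genes.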

Other observations

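Some genes of amino acid and folate metabolism that were near 0 in control libraries had values after 5aza and were too low to enter the main test. They were picked after their values were seen. With no filter on low values, 3 of 19 genes of other amino acid synthesis rose, against 2 of 15 in the main test. Of the folate and one-carbon genes 1 of 28 rose, against 1 of 26. Over all 16627 genes tested without the filter, 1780 rose. Over the whole table, 1663 to 1761 genes were listed at 0 in control libraries and 755 to 801 in 5aza libraries, so such a change was not particular to these pathways. BCAT1, the cytosolic branched-chain aminotransferase, was listed at 0, 0.00350 and 0 FPKM in control and at 1.06, 0.532 and 0.383 FPKM in 5aza libraries. ALDH1L1, a folate dehydrogenase of the cytosol, was at 0.0324, 0.0104 and 0.0108 FPKM and at 0.292, 0.0444 and 0.460 FPKM, and CBS, which starts transsulfuration, was listed at 0 in all control libraries and at 0.0270 to 0.0694 FPKM in 5aza libraries. ALDH1L2, the mitochondrial relative of ALDH1L1 and a known ATF4 target, stayed between 0.175 and 0.333 FPKM in all 6 libraries.

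RARS1, the arginyl-tRNA synthetase, varied more within groups than between them, at 210, 86.1 and 83.0 FPKM in control and 93.3, 88.7 and 276 FPKM in 5aza libraries. GARS1 (120, 97.7 and 105 against 91.6, 83.1 and 127 FPKM) was likewise highest in control replicate 1 and 5aza replicate 3 of their groups.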
